A study of Mus musculus with 64 samples.

Results

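Microglia of 12-month-old female mice were compared with microglia of 3-month-old female mice. The comparison used the 8 libraries of these groups, 4 of each age, among the 64 libraries of the series, and covered all 5647 genes of the deposited table. All 8 mice were C57BL/6J females of wild-type genotype, an inbred laboratory strain, and all received PBS, the vehicle of a lipopolysaccharide experiment in the same study. Each mouse gave 1 library. Brains without cerebellum were dissociated with papain, and live CD11b+ CD45low cells were sorted by flow cytometry. This gate collects microglia by surface level and can hold other myeloid cells with low CD45. Polyadenylated RNA was copied from an oligo-dT primer and amplified by PCR before sequencing. The deposited values are batch-adjusted FPKM, fragments per length of transcript and size of library, rounded to whole numbers. Their sequencing depth is unknown, and the sources used here do not name the batches, so an effect of batch cannot be told apart from age.

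Microglia are the resident macrophages of the brain. In the healthy brain they survey their surroundings through receptors for nucleotides and other small signals, among them P2ry12 and Cx3cr1, and are held in this state by transcription factors such as Sall1 and Mef2c. With age or disease they can lower such homeostatic genes and raise genes for antigen presentation, lipid handling and inflammatory signals, such as Cst7, Spp1 and Tnf. The NF-kB pathway drives many of the inflammatory genes and also induces its own inhibitors.

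The 12-month libraries were less alike than the 3-month libraries. Over all genes, with values taken as log2(value + 1), Pearson's r ran from 0.967 to 0.979 among the 3-month libraries, from 0.879 to 0.944 among the 12-month libraries and from 0.88 to 0.939 between the ages. Among the 12-month libraries, replicate 4 was the nearest to the 3-month libraries (0.926 to 0.939), and replicate 3 was the farthest from its own group (0.879 to 0.902). The median SD of a gene on the log2 scale was 0.172 at 3 months and 0.341 at 12 months, against 0.162 to 0.316 at the other female ages, and the SD was larger at 12 than at 3 months in 83.2% of genes. These correlations are across genes, which are not independent replicates. The defining genes of microglia were high in all 8 libraries. Tmem119, a microglial surface protein, stood between 1630 and 2847, and Csf1r, the receptor of the microglial survival factor CSF1, between 2004 and 3128.

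**Figure D1:**
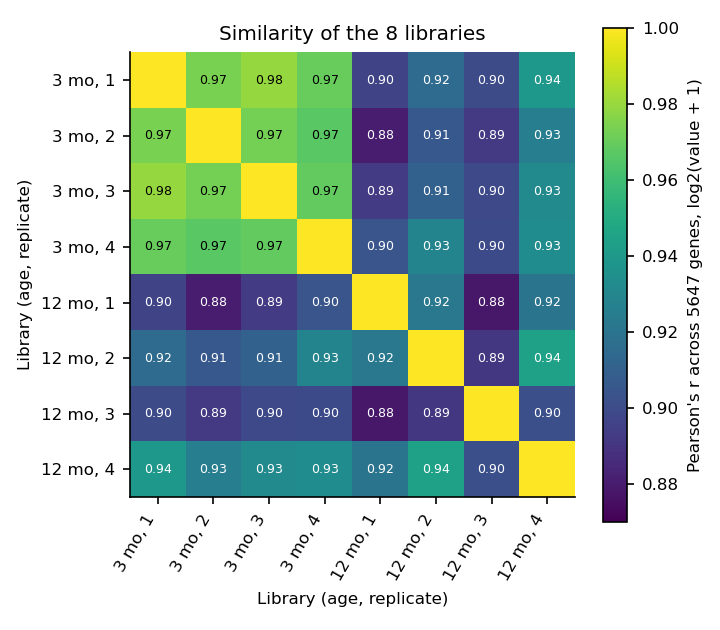
Pearson's r between each pair of the 8 libraries across 5647 genes on the log2(value + 1) scale, with the colour and the printed number both giving r. The 3-month libraries form a block from 0.967 to 0.979, and pairs of 12-month libraries lie between 0.879 and 0.944.

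A gene passed the test at a limma p-value under 0.05, adjusted over all genes by the method of Benjamini and Hochberg, and a fold over 1.5. Differences are given as 12 minus 3 months on the log2(value + 1) scale, which understates the change of low genes. Of 5647 genes, 512 passed (9.07%), 74 higher (1.31%) and 438 lower (7.76%) at 12 months. The median difference over all genes was −0.19, so that values as a whole lay lower at 12 months. This shift stood between −0.18 and −0.20 at each of 3 bands of level and of transcript length. After median-ratio scaling, which divides each library by its median ratio to an average library, the median was 0.00 and 224 genes passed (3.97%), 122 higher (2.16%) and 102 lower (1.81%). When totals were made equal across libraries, 202 passed (3.58%), 101 in each direction (1.79% each). The share of calls that were higher thus went from 14.5% to 54.5% with median-ratio scaling and 50% with the same total. With and without median-ratio scaling 175 genes passed in the same direction (3.1%), 73 higher (1.29%) and 102 lower (1.81%). In 164 of them the groups did not overlap in any library, 64 higher and 100 lower, against 19.2% of all genes without overlap, 3.19% higher and 16% lower. The 15 largest rises and falls below come from these 164. Calls given below with and without scaling refer to the unscaled and the median-ratio fit. No gene named by the rule for named genes changed sign under an alternative when it passed there or in the main fit. Some that passed in neither did, such as Csf1r (−0.22 to 0.04). Of the 78 genes named by that rule that passed and are given here, 44 did so under every alternative in which they were tested. There were 19 or 20 alternatives per gene, since a minimum mean of 50 left out low genes. Genes given outside the rule, such as those that complete a count, were not followed through the alternatives. Leaving out 1 library gave 290, 201, 264 and 286 genes without 3-month replicates 1 to 4, 259 without 12-month replicate 1 and between 473 and 536 without the other 12-month libraries. After scaling the same 5 libraries left 87, 57, 86, 113 and 94 genes, and the others between 192 and 228.

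**Figure D2:**
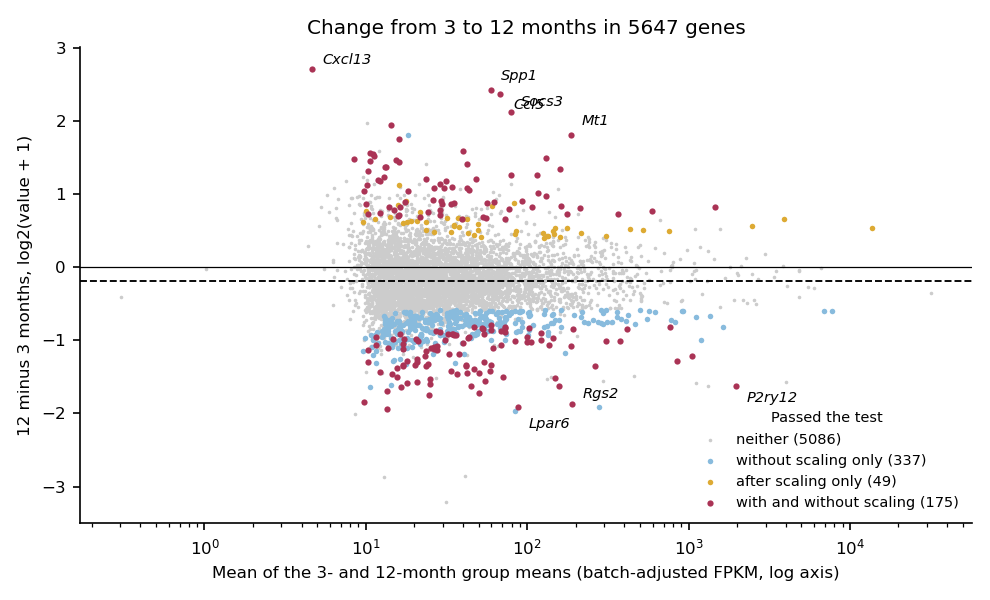
Difference between 12 and 3 months on the log2(value + 1) scale against the mean of both group means on a log axis, 1 point for each gene, coloured by whether it passed with and without median-ratio scaling. The dashed line is the median of all genes at −0.19, and all but 1 of the 337 genes that passed without scaling only lie below 0.

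Receptors for nucleotides and lipids were lower at 12 months. P2ry12, the ADP receptor by which microglia sense tissue damage, lies on chromosome 3 of GRCm38 (chr3:59216272-59262871). It stood at 2952, 3283, 2896 and 2802 in the 3-month libraries and at 733, 1082, 1140 and 970 in the 12-month libraries. The lowest 3-month value was well above the highest 12-month value, with a difference of −1.62 (standard error 0.25, limma adjusted p = 0.00068) and −1.42 after median-ratio scaling. P2ry13, another ADP receptor beside it on chromosome 3 (chr3:59207892-59210882), stood at 1233, 1221, 1210 and 1133 against 374, 529, 503 and 584 (difference −1.29, standard error 0.21, limma adjusted p = 0.00089). Gpr34, a lysophosphatidylserine receptor on chromosome X, stood at 1410, 1594, 1424 and 1390 against 433, 715, 574 and 847 (difference −1.22, standard error 0.24, limma adjusted p = 0.0046). For both genes the groups lay apart.

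Lpar6, a lysophosphatidic acid receptor, had the smallest p of the genes named here. It lies on chromosome 14 (chr14:73237895-73243294) and stood at 132, 140, 145 and 139 at 3 months and at 26, 33, 37 and 54 at 12 months. Its difference was −1.91 (standard error 0.18, limma adjusted p = 1.7e-07), and −1.72 after median-ratio scaling. Of 13 measured purinergic and related receptors and ectoenzymes, 8 were lower and none higher, and 5 were lower after median-ratio scaling. Of all genes 7.76% and 1.81% were lower. The list median was −0.79 and −0.59, against −0.19 and 0.00 for all genes. The other members that passed were P2rx7, Entpd1, Gpr183 and Pde3b, named because they completed the count, with differences from −0.76 to −1.03. Between 7 and 8 members of the list passed when 1 library was left out.

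The wider homeostatic genes moved less, and their calls depended on the scaling. Of 34 homeostatic surface, secreted and enzyme genes, 11 were lower without scaling and 4 after median-ratio scaling (P2ry12, P2ry13, Gpr34 and Rnase4), and none was higher. Of all genes 7.76% and 1.81% were lower. Rnase4, a secreted ribonuclease, stood at 939, 1047, 900 and 1039 against 459, 602, 685 and 495 (difference −0.82, standard error 0.18, limma adjusted p = 0.0082). Cx3cr1, the fractalkine receptor, fell from 2274, 2057, 1897 and 1961 to 1113, 1489, 693 and 1558. Its difference was −0.82 without scaling and −0.62 with it (limma adjusted p = 0.03 and 0.13), so that the call was lost with scaling. Siglech, a sialic acid-binding lectin, likewise passed without scaling only, with a difference of −0.72. Tmem119 did not pass in either fit (−0.44 and −0.24), although its libraries did not overlap, and neither did Csf1r (−0.16 and 0.04). When 1 library was left out, between 5 and 11 members passed, the lowest without 3-month replicate 2.

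Maf and Mef2c, transcription factors of macrophages and microglia, were lower at 12 months. Maf stood at 64, 66, 65 and 76 at 3 months and at 15, 32, 16 and 26 at 12 months (difference −1.63, standard error 0.24, limma adjusted p = 0.00059, −1.44 after scaling). Mef2c stood at 190, 192, 180 and 172 against 73, 94, 70 and 120 (difference −1.06, standard error 0.18, limma adjusted p = 0.0016, −0.87 after scaling). The groups lay apart for both, and both passed under every alternative in which they were tested. They were the only ones of 21 identity factors that passed, while 7.76% of all genes were lower without scaling and 1.81% after it. Sall1, which keeps microglia distinct from other macrophages, was at −0.81 with a standard error of 0.37 (limma adjusted p = 0.15). Irf8 was at −0.18 with overlapping groups.

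**Figure D3:**
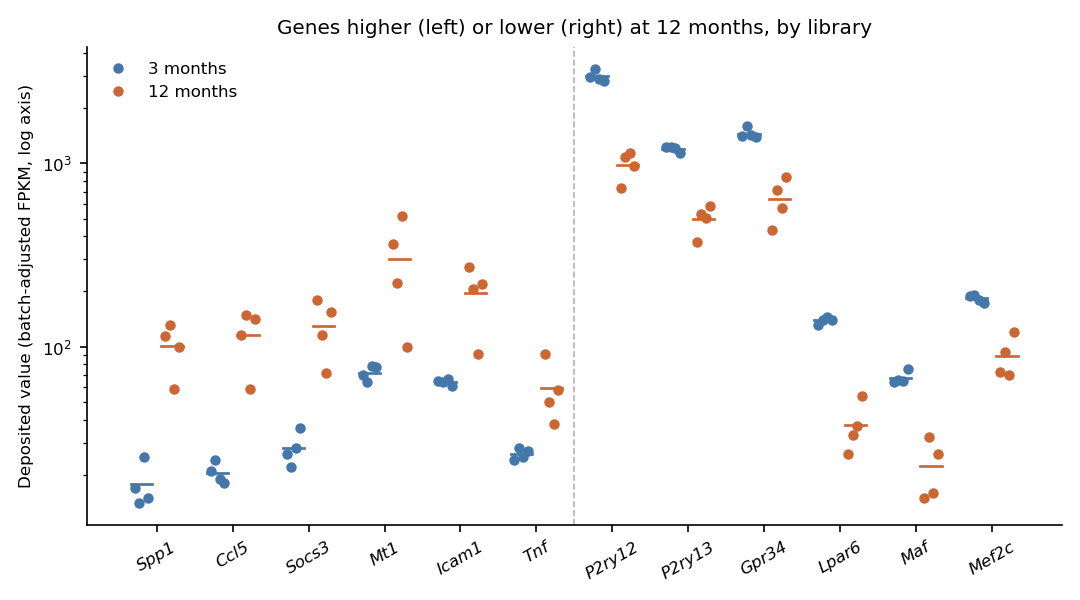
Deposited value of 6 genes that were higher and 6 that were lower at 12 months, on a log axis, with 1 point for each library and a line at the group mean. The groups do not overlap for any of the 12 genes, and the 3-month points lie closer together than the 12-month points.

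Other genes among the 15 largest falls had roles in signalling, vesicle traffic and metabolism. Rgs2, an inhibitor of G protein signalling, stood at 266, 286, 280 and 308 against 29, 99, 64 and 190, a wide spread at 12 months (difference −1.87, standard error 0.43, limma adjusted p = 0.0098). Scoc, a Golgi protein with a role in autophagy, stood at 213, 247, 220 and 254 against 33, 120, 81 and 96 (difference −1.63). Bet1, a SNARE of vesicle transport from the endoplasmic reticulum to the Golgi, and Bloc1s6, a subunit of a complex that builds lysosome-related organelles, were at −1.63 and −1.84. Evi2 was at −1.94, and Pygl, the liver form of glycogen phosphorylase, at −1.57. All these falls passed under every alternative in which they were tested.

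Of the 15 largest falls, 6 cannot be assigned with certainty. Gm3005, Gm3488, Gm10406, Gm3383 and 2610042L04Rik, with differences from −1.55 to −1.75, are members of a gene family on chromosome 14 (between 3428103 and 7027449 on GRCm38) whose near-identical copies can share reads. Eif2s3y, a gene of the Y chromosome, was listed at 41, 30, 24 and 16 and at 6, 10, 10 and 7 in these females, and it has a close copy on the X chromosome, Eif2s3x. What its reads came from was not tested.

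Inflammatory mediators led the rises. Spp1, which encodes osteopontin, a secreted protein of activated microglia, stood at 17, 14, 25 and 15 at 3 months and at 115, 132, 59 and 99 at 12 months. The groups lay apart, with a difference of 2.42 (standard error 0.62, limma adjusted p = 0.017) and 2.61 after scaling, and without 3-month replicate 2 the limma adjusted p was 0.0534. Ccl5, a chemokine for T cells, stood at 21, 24, 19 and 18 against 116, 148, 59 and 141 (difference 2.37, standard error 0.38, limma adjusted p = 0.00089). Cxcl13, a B cell chemokine, was near the lower end of the table, at 0, 2, 0 and 0.1 against 3, 9, 10 and 13, and lost its call in 5 of 19 alternatives. Of 23 chemokines and chemokine receptors, 3 were higher and 4 lower without scaling, against 1.31% and 7.76% of all genes. Among the lower were Ccr2, a chemokine receptor of monocytes, at 40, 36, 43 and 29 against 14, 10, 7 and 21 (difference −1.53), and Ccl24, an eosinophil chemokine (−1.35). Ccl3 and Ccl4, chemokines made by microglia, were at 0.60 and 1.07 and did not pass (limma adjusted p = 0.28 and 0.078).

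Of 38 cytokines and receptors, 4 were higher and 3 lower without scaling, and 5 were higher and none lower after it. Of all genes 1.31% were higher and 7.76% lower without scaling, and 2.16% and 1.81% after it. The higher ones in both fits were Socs3, Tnf, Il2rg and Csf2ra (0.88), a receptor chain for GM-CSF that is named because it completes the count, and the list median was −0.09 without scaling and 0.11 with it. Socs3, a feedback inhibitor of JAK and STAT signalling, stood at 26, 22, 28 and 36 at 3 months and at 179, 116, 72 and 154 at 12 months (difference 2.12, standard error 0.53, limma adjusted p = 0.014). Tnf, a central inflammatory cytokine, stood at 24, 28, 25 and 27 against 91, 50, 38 and 58 (difference 1.09, standard error 0.29, limma adjusted p = 0.019). Every 12-month library lay above every 3-month library for both. Tnf lost its call without 12-month replicate 1 and with all PBS groups in the fit (limma adjusted p up to 0.0779). Il2rg, the common chain of several interleukin receptors, was at 1.19, and Jak3, the kinase that binds it, at 1.47, and both lost their call without 12-month replicate 1, Il2rg also without 3-month replicate 2 (limma adjusted p up to 0.0572 and 0.0589). Il1b was at 0.83 without scaling and did not pass (limma adjusted p = 0.061), and at 1.03 after it (limma adjusted p = 0.042), and it passed in 7 of 20 alternatives. The count of higher members ran from 1, without 12-month replicate 1, to 6 when a library was left out.

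Several feedback inhibitors and related regulators of NF-kB stood higher at 12 months. Several IkB proteins hold NF-kB in the cytosol, and A20, the product of Tnfaip3, removes ubiquitin from the proteins that activate it, with the Tnip proteins as partners. Of 17 measured NF-kB subunits and inhibitors 7 were higher and none lower, with and without median-ratio scaling, against 2.16% and 1.31% of all genes that were higher, and the list median was 0.68 without scaling and 0.88 with it. The 7 were Tnfaip3 and genes of the IkB and Tnip families, and none of the subunits Rela, Relb, Rel, Nfkb1 and Nfkb2 passed. Tnfaip3 stood at 23, 23, 24 and 27 against 41, 57, 38 and 48 (difference 0.88, standard error 0.26, limma adjusted p = 0.032). Nfkbib and Nfkbie, both IkB proteins, were at 1.09 and 0.86, with 1 library of Nfkbib at 12 months within the 3-month range, and Tnip1 was at 1.05. The other members were Nfkbia, Nfkbiz and Tnip2, with differences of 0.78, 0.68 and 0.78, named because they completed the count. When 1 library was left out between 0 (without 3-month replicate 2) and 4 members passed, and with the same total 5 did. Icam1, an adhesion molecule induced by NF-kB, stood at 65, 64, 67 and 61 against 271, 207, 91 and 220 (difference 1.50, standard error 0.29, limma adjusted p = 0.0043) and passed under every alternative.

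The 250 bases upstream of the start of these genes, from RefSeq on GRCm38.p6, were searched on both strands for the NF-kB consensus. Of 13 list members with a listed promoter, 8 held a match, and of the 6 that passed and had one, 4 did. Among the genes of the table with a promoter 8.6% held a match, against 15.5% of the 58 genes that were higher in both fits, 5.88% of the 85 that were lower in both and 7.01% of 27025 promoters. The 58 include list members with a match, such as Nfkbie, Tnfaip3 and Tnip1. Their share is therefore not independent of the list, and it was not computed without it. The promoters of Nfkbia (chr12:55492648-55492897, minus strand) and Tnip1 (chr11:54962941-54963190, minus strand) are shown as members of the list, with the matches in capitals. The promoters of Icam1 and Tnf held no match in this window. The 3 matches of Tnip1 overlap each other. P2ry12 (chr3:59262986-59263235, minus strand), the most abundant of the large falls, also held 1 match. For Socs3 the RefSeq window (chr11:117969367-117969616, minus strand) is shown with the STAT site TTCNNNGAA in capitals. GENCODE, the source of the gene positions given here, places Socs3 at chr11:117966079-117970047. By that annotation the window lies inside the gene, so it may not be its promoter. The letters of the STAT site were found in 6.9% of the promoters of the higher genes, 11.8% of those of the lower genes and 6.28% of those of the table. Each line runs 5′ to 3′ on the gene's strand and ends at the base before the start, and a match of letters is a description, not a bound site.
Nfkbia: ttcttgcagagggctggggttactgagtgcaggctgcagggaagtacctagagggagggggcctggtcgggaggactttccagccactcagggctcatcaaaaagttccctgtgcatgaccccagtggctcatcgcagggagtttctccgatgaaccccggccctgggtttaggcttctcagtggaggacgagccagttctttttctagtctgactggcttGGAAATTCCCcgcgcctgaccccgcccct
Tnip1: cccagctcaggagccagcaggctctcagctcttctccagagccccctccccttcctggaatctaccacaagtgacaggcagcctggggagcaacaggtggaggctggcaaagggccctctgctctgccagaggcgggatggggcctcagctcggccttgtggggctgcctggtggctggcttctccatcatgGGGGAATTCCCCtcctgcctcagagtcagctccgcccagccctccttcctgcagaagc
P2ry12: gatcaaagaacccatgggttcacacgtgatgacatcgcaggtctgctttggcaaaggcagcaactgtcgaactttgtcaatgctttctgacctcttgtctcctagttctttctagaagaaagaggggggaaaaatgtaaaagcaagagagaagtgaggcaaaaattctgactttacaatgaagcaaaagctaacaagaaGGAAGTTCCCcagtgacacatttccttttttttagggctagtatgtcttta
Socs3: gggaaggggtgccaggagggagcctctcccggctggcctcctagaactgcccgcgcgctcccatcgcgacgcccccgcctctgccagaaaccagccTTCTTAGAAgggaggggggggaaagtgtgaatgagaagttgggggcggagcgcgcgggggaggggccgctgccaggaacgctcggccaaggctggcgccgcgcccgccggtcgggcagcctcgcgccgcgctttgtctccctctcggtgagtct

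Stress genes moved in both directions. Mt1, a metallothionein that binds zinc and is induced by glucocorticoids and metals, stood at 70, 64, 78 and 77 at 3 months and at 362, 223, 515 and 100 at 12 months. The 12-month values spread widely but lay above all 3-month values (difference 1.80, standard error 0.36, limma adjusted p = 0.0043). Of 12 glucocorticoid and stress restraint genes, 4 were higher without scaling and 4 after it, against 1.31% and 2.16% of all genes. In both fits they were Mt1, Fkbp5 (1.38), a chaperone of the glucocorticoid receptor, Cdkn1a (1.06), an inhibitor of the cell cycle, and Dusp1 (0.82), a phosphatase that ends MAP kinase signals. The largest rise of the list without scaling was 1.98, in a member that did not pass. The count of higher members fell to 1 without 3-month replicate 2. Sgk1, a kinase induced by glucocorticoids, was lower without scaling only (−1.18), and Tsc22d3, which they also induce, did not pass (−0.24). Among 35 immediate early genes Gadd45b (1.19), Dusp1 and Ier2 (0.73) were higher and Rgs2 lower, against 1.31% and 7.76% of all genes. None of the higher ones passed without 3-month replicate 2. Fos, Jun and Egr1, which respond within minutes to handling and signals, were at 0.00, −0.05 and 0.19 with overlapping groups. The median of the immediate early list was 0.19 without scaling and 0.39 with it, against −0.19 and 0.00 for all genes. In these fits 23 and 25 of its members lay above 0. The part of handling during dissociation in these levels was not tested.

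Some chaperones were lower, and fewer after scaling. Of 26 genes of the unfolded protein response 6 were lower, 20 did not pass and none was higher, and 2 were lower after scaling, against 7.76% and 1.81% of all genes. Hsp90b1, the HSP90 of the endoplasmic reticulum, stood at 380, 410, 416 and 422 against 132, 257, 184 and 263 (difference −1.01, standard error 0.21, limma adjusted p = 0.0058). Pdia6, a disulfide isomerase, stood at 255, 236, 240 and 260 against 134, 146, 128 and 144 (difference −0.84, standard error 0.17, limma adjusted p = 0.0046). Both groups lay apart, and both genes passed under every alternative. Of 40 heat shock proteins and cytosolic chaperones, 7 were lower and 1 after scaling, Hsph1 (−1.43), which lost its call without 12-month replicate 1 (limma adjusted p = 0.0546). Hspa8 was at −0.69 without scaling only, and Hspa1a, the inducible HSP70, at 0.24. Leaving out 12-month replicate 1 lowered the count from 7 to 2.

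Of 20 class I genes 1 was higher and 1, Pdia3, lower without scaling, and 3 were higher after it, against 1.31% and 2.16% of all genes that were higher. H2-Q7, a class I molecule, stood at 5, 7, 4 and 5 at 3 months and at 15, 13, 18 and 18 at 12 months (difference 1.45, standard error 0.28, limma adjusted p = 0.0043). It belongs to a family of similar genes that can share reads. H2-K1 and H2-D1, the classical class I genes, were at 0.51 and 0.50 and did not pass, and passed after scaling (0.70 each). Cd74, the class II invariant chain, stood at 3238, 2396, 3772 and 2662 against 5733, 4591, 4210 and 4447, without overlap. It did not pass without scaling (0.67, limma adjusted p = 0.073), was the 1 of 11 class II genes that passed after it (0.86, limma adjusted p = 0.042), and passed in 4 of 20 alternatives. H2-Ab1 was at 0.53 and 0.73 and did not pass.

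Of 25 disease-associated genes 2 were higher without scaling, Spp1 and Axl, and 3 after it, with Fth1 added, against 1.31% and 2.16% of all genes. The list median was −0.08 without scaling and 0.12 with it. Axl, a receptor for apoptotic cells, stood at 19, 12, 19 and 17 against 39, 39, 26 and 42 (difference 1.08, standard error 0.33, limma adjusted p = 0.036), and lost its call in 7 of 19 alternatives. The count for the list fell to 0 without 3-month replicate 2. Fth1, the ferritin heavy chain, was at 0.56 and, after scaling, 0.76. Cst7, a cystatin, stood at 8, 9, 13 and 10 against 26, 20, 17 and 28, without overlap, but did not pass (1.10, standard error 0.42, limma adjusted p = 0.091). Apoe, Trem2, Clec7a and Lpl, all markers of this state, were at −0.26, −0.16, −0.25 and 0.00 with overlapping groups. Of 47 interferon response genes 2 were higher without scaling and 3 after it, against 1.31% and 2.16% of all genes. Those without scaling were Isg20 (1.52), an exonuclease, and Ifih1 (0.87), a sensor of viral RNA. The list median was 0.36 and 0.54, against −0.19 and 0.00 for all genes, and 42 and 46 members lay above 0. No interferon gene passed without 3-month replicate 1. Ifitm3 and Isg15 were at 0.52 and 0.75 and did not pass.

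Further rises among the 15 largest included genes of adhesion and signalling. Tgm2, a transglutaminase, stood at 19, 16, 16 and 19 against 101, 50, 22 and 78 (difference 1.59), and Clic4, a chloride channel protein, at 6, 8, 7 and 5 against 12, 34, 26 and 31 (difference 1.76). Hcar2, a receptor for butyrate and ketone bodies, was at 1.55, Itga5, an integrin that binds fibronectin, at 1.48 and Nectin2, an adhesion molecule, at 1.43. Arid5a, an RNA-binding protein that stabilises cytokine messages, was at 1.95. Smaller rises, outside the 15 largest, were seen in members of the other lists. Rbm3, a cold-induced RNA-binding protein, stood at 29, 30, 26 and 30 against 80, 64, 55 and 73 (difference 1.20, standard error 0.29, limma adjusted p = 0.013). Ccnd2, a cyclin of the G1 phase, and Myh9, a non-muscle myosin, were at 1.18 and 0.89. All the genes of this paragraph passed under every alternative in which they were tested.

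Of 82 cytosolic ribosomal protein genes 0 passed without scaling with limma and 3 were higher after it. Of all genes 9.07% passed without scaling and 2.16% were higher after it. The median of the ribosomal genes was 0.13 without scaling and 0.32 with it, against −0.19 and 0.00 for all genes, and 56 and 78 of them lay above 0. Of 78 nuclear genes of the respiratory chain and ATP synthase 0 passed in either fit, against 9.07% and 3.97% of all genes. With a limma p under 0.05 before adjustment and the same fold, without scaling, the counts were 0 and 1. Without overlap between the groups 3 ribosomal genes stood higher and 8 respiratory chain genes lower, against 3.19% and 16% of all genes. The median of the respiratory chain genes was −0.17 and, after scaling, 0.03. Of 20 Toll-like receptors and adaptors 4 were lower without scaling, Tlr3, Tlr4, Tlr13 and Ly86, against 7.76% of all genes, and 0 after it, where 1 met the fold with a limma p under 0.05 before adjustment. Of 51 lysosomal enzymes 6 were lower, and 1 after scaling or without 12-month replicate 1, against 7.76% and 1.81% of all genes, with a list median of −0.26 and −0.06.

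Of 26 inhibitory and paired myeloid receptors 6 were lower, and 3 after scaling, against 7.76% and 1.81% of all genes. The list median was −0.47 without scaling and −0.27 with it, and 12 members were lower without overlap between the groups, against 16% of all genes. The members that passed after scaling were Clec4a2 (−1.34), Clec4a3 (−1.02) and Cd200r1 (−1.33), receptors that can dampen myeloid activation.

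**Figure D4:**
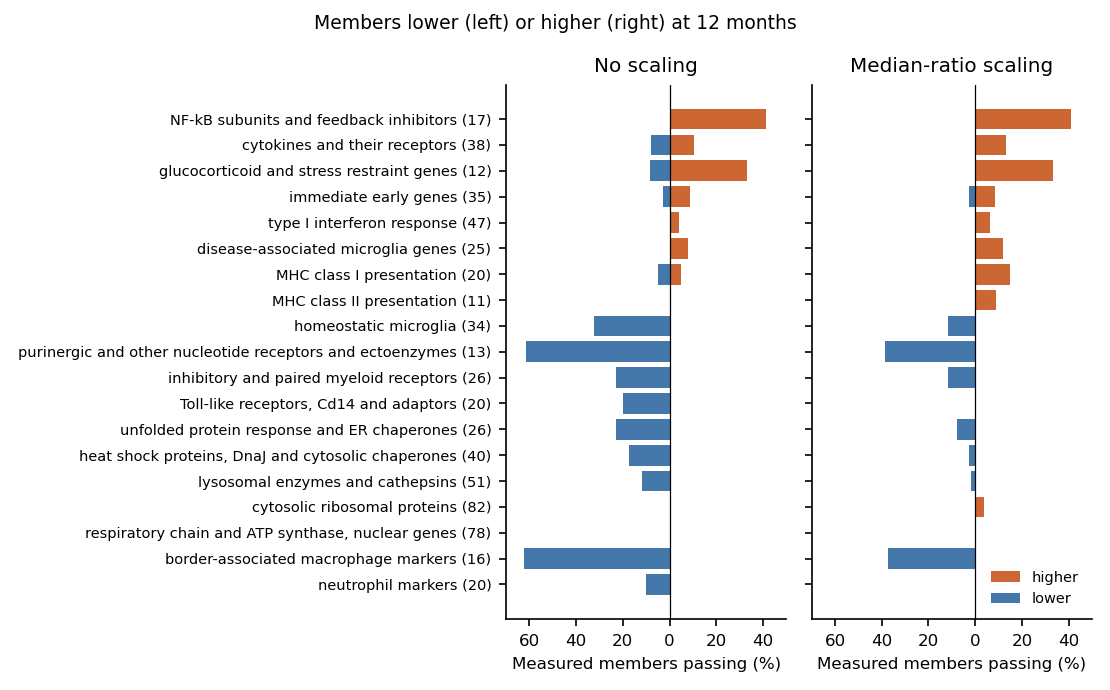
Percent of the measured members of 19 gene lists that passed the test, higher to the right and lower to the left, without scaling and after median-ratio scaling, with the number measured in parentheses. Purinergic receptors and border-associated macrophage markers have the longest bars to the left and NF-kB subunits and feedback inhibitors to the right in both panels.

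Border-associated macrophages, which lie along vessels and meninges, express Mrc1, Lyve1, Cd163 and F13a1, and more of their markers were lower at 12 months than in any other marker list. Of 16 of their markers 10 were lower at 12 months and 6 after scaling, against 7.76% and 1.81% of all genes. None was higher, and the list medians were −0.89 and −0.69. Between 7 and 11 were lower when 1 library was left out. Their sum without Apoe stood at 855, 828, 987 and 891 at 3 months and at 476, 557, 490 and 467 at 12 months, and none was at 0 in any library. Lyve1 stood at 20, 24, 20 and 28 against 9, 13, 3 and 8 (difference −1.50, standard error 0.30, limma adjusted p = 0.0051), and F13a1 at 86, 69, 98 and 82 against 25, 46, 18 and 52 (difference −1.34). Maf, Ccl24, Clec4a2 and Cd36 are also expressed by such macrophages. In bulk libraries fewer cells of a type and less RNA per cell cannot be told apart, and the part of these cells in the falls above was not tested.

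Neutrophil genes were abundant in the 3-month libraries, although few passed the test. The sum of 20 markers ran from 7388 to 19639 at 3 months and from 2164 to 5811 at 12 months, and none was at 0. S100a8, an abundant calcium-binding protein of neutrophils, stood at 6283, 4107, 9967 and 3691 against 2123, 1003, 2351 and 2423 and did not pass (−1.57, standard error 0.59, limma adjusted p = 0.084). It was given for its level, after its values were seen. Mmp8 and Retnlg were lower without scaling only (−1.96 and −1.91), and neither passed without 3-month replicate 1. The list median was −1.14, and the part of neutrophil RNA in the other results was not tested. Blood-derived RNA was measured by 4 erythroid and platelet markers, Hba-a1, Hba-a2 and Hbb-bs, which encode chains of haemoglobin, and Pf4, a platelet chemokine. Pf4 is also among the border-associated macrophage markers counted above, and which cells its fall came from was not tested. Their list median was −2.86 without scaling and −2.73 with it, and their sum ran from 189.85 to 433 at 3 months and from 72 to 133 at 12 months. Hba-a1 stood at 64, 113, 130 and 0.14 against 10, 0, 3 and 8, so that 3-month replicate 4 lay with the 12-month libraries. The haemoglobin genes overlapped between the groups and did not pass (limma adjusted p from 0.097 to 0.15), all 4 markers met the fold with a limma p under 0.05 before adjustment in both fits, and Pf4 passed without scaling (−0.82). The part of blood RNA in the falls was not tested. Of 4 T and NK cell markers Ccl5 alone passed, against 1.31% of all genes that were higher without scaling. All 4 lay above 0 in both fits, with a list median of 0.72 without scaling and 0.90 with it. Their sum, which includes Ccl5, ran from 48 to 57 at 3 months and from 107 to 212 at 12 months. The part of such cells in the rise of Ccl5 was not tested. Of 5 oligodendrocyte markers 1 passed, against the same 1.31%. It was Ptgds, a prostaglandin synthase, at 6, 7, 7 and 7 against 23, 22, 21 and 12. No neuron, pericyte or mitochondrially encoded gene of the lists had values in the table.

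Against the ages on either side, 12 months stood out in few genes. Compared with the mean of the 3 mice of 9 months and the 5 mice of 14 months, 2 of 5647 genes passed (0.0354%), both lower at 12 months in both scalings, and 203 met the same fold with a p under 0.05 before adjustment. The genes that passed were Lpar6 (−1.11, standard error 0.18, limma adjusted p = 0.00063) and Bloc1s6 (−1.42, limma adjusted p = 0.024). The mean of Lpar6 was 139 ± 5.35 (SD, n = 4) at 3 months and lower at every later age. At 6 and 9 months its level was 92 ± 2.83 (SD, n = 2) and 93.3 ± 20.5 (SD, n = 3), and at 12 months 37.5 ± 11.9 (SD, n = 4), the lowest of 7 ages. Older mice of 14, 16 and 24 months had 68.6 ± 8.38 (SD, n = 5), 59 ± 9.72 (SD, n = 5) and 97 ± 12.5 (SD, n = 3). P2ry12, Maf and Mef2c also had their lowest female mean at 12 months, but against 9 and 14 months they were at −0.67, −0.95 and −0.46 and did not pass (limma adjusted p = 0.22, 0.087 and 0.25). Socs3 had its highest mean at 6 months, 254.5 ± 17.7 (SD, n = 2), and Spp1 at 24 months. The count was 29 without 9-month replicate 1, 4, 10, 1 and 14 without 12-month replicates 1 to 4, 4 and 1 without 14-month replicates 1 and 2, and 2 without each other library.

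**Figure D5:**
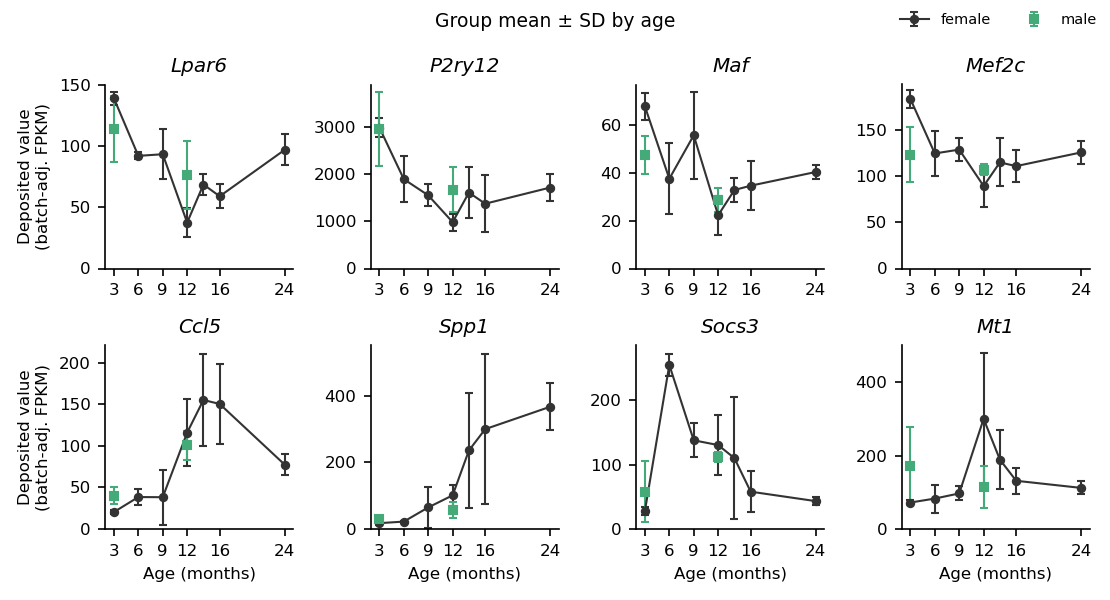
Group mean ± SD of 8 genes against age in months, for the female PBS groups joined by a line and for males of 3 and 12 months as squares. Lpar6, P2ry12, Maf and Mef2c have their lowest female mean at 12 months, and Mt1 its highest.

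Male microglia of the same ages, from 4 mice of 3 months and 2 of 12 months, shared no library with the females. Of the 73 genes higher in females in both fits, 47 lay above 0 in males (64.4%, against 49.2% of all genes). Of the 102 lower ones 77 lay below 0 in males, and 24.5% lay above 0, against the same 49.2% of all genes. P2ry12 stood at 2953 ± 793 (SD, n = 4) and 1670 ± 470 (SD, n = 2) in males, a difference of −0.80 that did not pass. Tgm2, Hcar2 and Tnf were at 1.41, 1.88 and 1.73 in males, and Mt1 at −0.49, and none of these 4 changes passed in males. The difference between the female and the male change passed for 22 genes (0.39%), 3 with the higher change in females (0.0531%) and 19 with the lower (0.336%). After scaling it passed for 17 (0.301%), 8 (0.142%) and 9 (0.159%). Ccr2 was at −1.53 in females and 1.15 in males (female minus male −2.68, standard error 0.52, limma adjusted p = 0.00999), and Dusp1 at 0.82 and −0.61 (1.43, standard error 0.27, limma adjusted p = 0.00768). The neutrophil genes Mmp8 and Retnlg were at −1.96 and −1.91 in females and at 1.69 and 1.73 in males. With 2 males of 12 months these counts rest on single libraries, since no gene passed without male 12-month replicate 1 and 7 did without replicate 2, while 48 did without female 12-month replicate 4, and 11 and 12 without female 3-month replicates 1 and 3.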

How the data were processed

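Microglial RNA of single mice was sequenced after oligo-dT priming and amplification. Per the submitters' processing notes and the study's methods, the authors filtered the reads with SOAPnuke, aligned them with HISAT2 (version 2.0.4) and Bowtie2 (version 2.2.5) using mm10, and estimated FPKM with RSEM (version 1.2.12). Both sexes went through ComBat_seq in 1 batch adjustment, and genes averaging under 10 FPKM were dropped. Adjustment of this kind can shift a group where batch and age overlap. The deposited values are scores, batch-adjusted FPKM in whole numbers save for 297 values, and not counts. Depth is unknown, so that no counting interval was computed and the number of mice limits the precision.

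Groups were taken from the titles. Values were analysed as log2(value + 1) in 1 limma fit (version 3.58.1, with statmod 1.5.0, R 4.3.3) that moderates variances along their trend with the mean, over 26 PBS-treated females of 7 ages. The sexes were compared in a fit over 43 libraries of 12 PBS groups. Tables and plots were made in Python 3.11.15 with pandas 2.3.3, numpy 2.4.6 and matplotlib 3.10.9. The method was tested on simulated data with the same groups. The p-values set each difference against the spread between mice, pooled over the groups of a fit and left after batch adjustment. That spread was not equal, with a median SD of 0.172 at 3 months and 0.341 at 12 months.

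Genes named were the 15 largest rises and falls that passed with and without median-ratio scaling and did not overlap between groups, up to 4 passing members of each list, and 34 reference genes. The comparison, the 55 gene lists and the alternatives were chosen with earlier results of these data known. Positions came from GENCODE vM21 on GRCm38, the assembly that mm10 names, and promoters from RefSeq on GRCm38.p6, as the first listed window of a gene. Of the 5647 genes 4571 had one. The alternatives were other pseudocounts (0.5 and 5), a minimum mean of 50, median-ratio and same-total scaling, a variance that was robust or without trend, the adjusted p alone or an unadjusted p with the fold, fits of other sets of groups, a block for the replicate number and each library left out in turn. Library weights were added after seeing the data. The study's single-cell, chromatin and protein data were not used here. The values of 2 marker genes are not reported here.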

Additional observations from a re-analysis of the deposited data

Results flagged for a closer look

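In groups of 4 libraries, 1 library lay apart from the other 3 by more of the range than Dixon's 95% critical value allows in 14 of 204 groups examined over 102 named genes that the text gives. Chance gives about 1 in 20, and genes of 1 library are not independent. At 3 months 10 groups met this limit and at 12 months 4. The gap as a share of the range stands in parentheses. At 3 months the library apart was replicate 1 for Jak3 (1, at 9 against 7) and Ptgds (1, at 6 against 7). It was replicate 2 for Cxcl13 (0.95), Gpr34 (0.833, at 1594 against 1390 to 1424), Ifih1 (1, at 6 against 7), Nfkbib (1, at 15 against 21) and Fos (0.844, at 1661 against 1812 to 1840). It was replicate 4 for Maf (0.833, at 76 against 64 to 66), Siglech (0.858, at 1061 against 920 to 940) and Slc39a10 (1, at 14 against 15). At 12 months it was replicate 1 for Hcar2 (1, at 19 against 16), replicate 3 for Il1b (0.879, at 54 against 83 to 87) and Clec4a3 (0.863, at 33 against 77 to 84), and replicate 4 for Pf4 (0.957, at 59 against 104 to 106). Ties of whole numbers make a gap of the full range common in low genes.

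The change from 3 to 12 months differed between females and males in 10 named genes, by a limma interaction test. Female minus male, the change was 1.43 for Dusp1 and −2.68 for Ccr2, as given above. It was −2.24 for Evi2 (−1.94 in females, 0.30 in males, limma adjusted p = 0.0174), −2.03 for Bloc1s6 (limma adjusted p = 0.0139), −2.22 for Gm3005 (limma adjusted p = 0.0174) and −2.58 for Pygl (limma adjusted p = 0.0157). For the myeloid receptor Cd300ld it was −3.53 (−1.64 in females, 1.89 in males, limma adjusted p = 0.00768). For the neutrophil genes Mmp8 and Retnlg it was −3.65 and −3.64 (limma adjusted p = 0.0345 each). For Rnf13, a ubiquitin ligase, it was −1.08 (−0.77 in females, 0.31 in males, limma adjusted p = 0.0372). After median-ratio scaling Gm3005, Mmp8, Retnlg and Rnf13 did not pass (limma adjusted p = 0.0533, 0.0604, 0.0628 and 0.121). The part of neutrophils in these differences was not tested.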

How the results depend on the processing

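The count at 12 against 3 months was 195 with a minimum mean of 50, 224 with median-ratio scaling, 202 with the same total and 919 at an unadjusted p, and it ran from 201 to 536 when 1 library was left out. After median-ratio scaling it was 110 with a minimum mean of 50 and 469 with library weights (270 higher, 199 lower), an alternative chosen after seeing the data, and ran from 57 to 228 when 1 library was left out. Against 9 and 14 months the count was 1 with a minimum mean of 50 and 203 at an unadjusted p, and ran from 1 to 29. For the difference between the sexes it was 14 with the same total and 628 at an unadjusted p, and ran from 0 to 48. Fewer genes are tested with a minimum mean, and for the other changes the cause was not tested. The remaining 47 values of these counts stayed within 1.5 times the reported one, and no named gene changed sign where it passed in either fit. Over all 160 named genes and their alternatives, 2615 results stayed on their side of the threshold, 444 lost it and 61 gained it.

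Replicate numbers appear in both groups but name no litter or batch. Residuals of same-numbered libraries correlated at −0.00214, −0.0149, 0.0563 and −0.163, and 0 of 4 12-month libraries correlated best with their own number, so the libraries were not treated as paired. With the replicate number as a block 528 genes passed over both groups alone, 487 over all 7 female groups and 303 after median-ratio scaling over both groups alone. With only 4 mice a group and unknown depth, a gene that did not pass is not shown to be stable.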
